A study of Macaca fascicularis with 7 samples.

Results

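SCF ubiquitin ligases are multi-subunit enzymes that mark chosen proteins for destruction by the proteasome. Their messenger RNAs were followed through the maturation of cynomolgus monkey (Macaca fascicularis) oocytes. The set was chosen by gene symbol: every row of the count table whose symbol starts with FBXO, FBXL or FBXW and a number, except FBXO5 and FBXO43, together with SKP1, SKP2, CUL1, RBX1 and BTRC. It held 64 of 28161 usable gene rows, of which 3 were core subunits, 9 were F-box proteins with WD40 repeats (the FBXW class, with BTRC), 19 had leucine-rich repeats (the FBXL class, with SKP2) and 33 belonged to the remaining FBXO class. No member had 0 counts in all 7 libraries, and 61 passed the filter on low counts and were tested.

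Immature oocytes at the germinal vesicle stage (GV), which wait in meiotic prophase, gave 2 libraries. Oocytes at metaphase of meiosis II (MII) gave 2 libraries after maturation in the animal (in vivo, IVO) and 3 after maturation in culture (in vitro, IVM). All oocytes were labelled wild type, with the treatment label control for GV and IVO MII and treated for IVM MII. The number of oocytes and of animals behind a library is not stated, so p-values here refer to the spread among these libraries alone, which may be technical. Culture conditions and animal age were not among the labels.

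In an SCF ligase, CUL1 is a rod-like scaffold, RBX1 is the RING subunit that brings in the ubiquitin-conjugating enzyme, and SKP1 is the adaptor that holds an F-box protein. The F-box protein recognises the substrate, often only after the substrate has been phosphorylated, so the set of F-box proteins present decides what can be degraded. In oocytes and eggs, SCF ligases are best known for removing cell cycle regulators and RNA-binding proteins around the resumption and arrest of meiosis.

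Levels are given as CPM, the counts of a gene over its library's TMM-scaled total, brought to a common size, and as CPM per kilobase of the deposited feature length where genes are compared with each other. Values after ± are SDs between libraries (n = 2 for GV, n = 2 for IVO MII, n = 3 for IVM MII). Library totals were 22901970 to 29245733 counts, and 3 counts, the floor used for a gene at 0, corresponded to 0.0907 to 0.161 CPM. TMM factors ranged from 0.766 to 0.985 in the MII libraries, with 1.42 and 1.38 in GV. All 10 oocyte markers were detected in every group. Summed markers of cumulus and granulosa cells were 18.1 to 19.4 CPM in GV, 61.4 to 102 in IVO MII and 97.2 to 217 in IVM MII over 11 measured genes, with AMH and PTX3 at 0 in every group. Summed markers of stroma, theca and endothelium were 1081 to 1212 CPM in GV and 60.8 to 127 CPM in MII libraries. In GV nearly all of that was VWF, and COL3A1 and LUM were at 0 in every group. Blood and immune markers stayed at or below 1.12 CPM. The part of other cell types in the results was not tested. As the number of cells behind a library is not stated, fewer cells of a type and less RNA per cell cannot be told apart. By the folder names in the labels, GV was kept apart from every MII library, so in comparisons with GV a difference between folders and one between stages cannot be told apart.

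**Figure D1:**
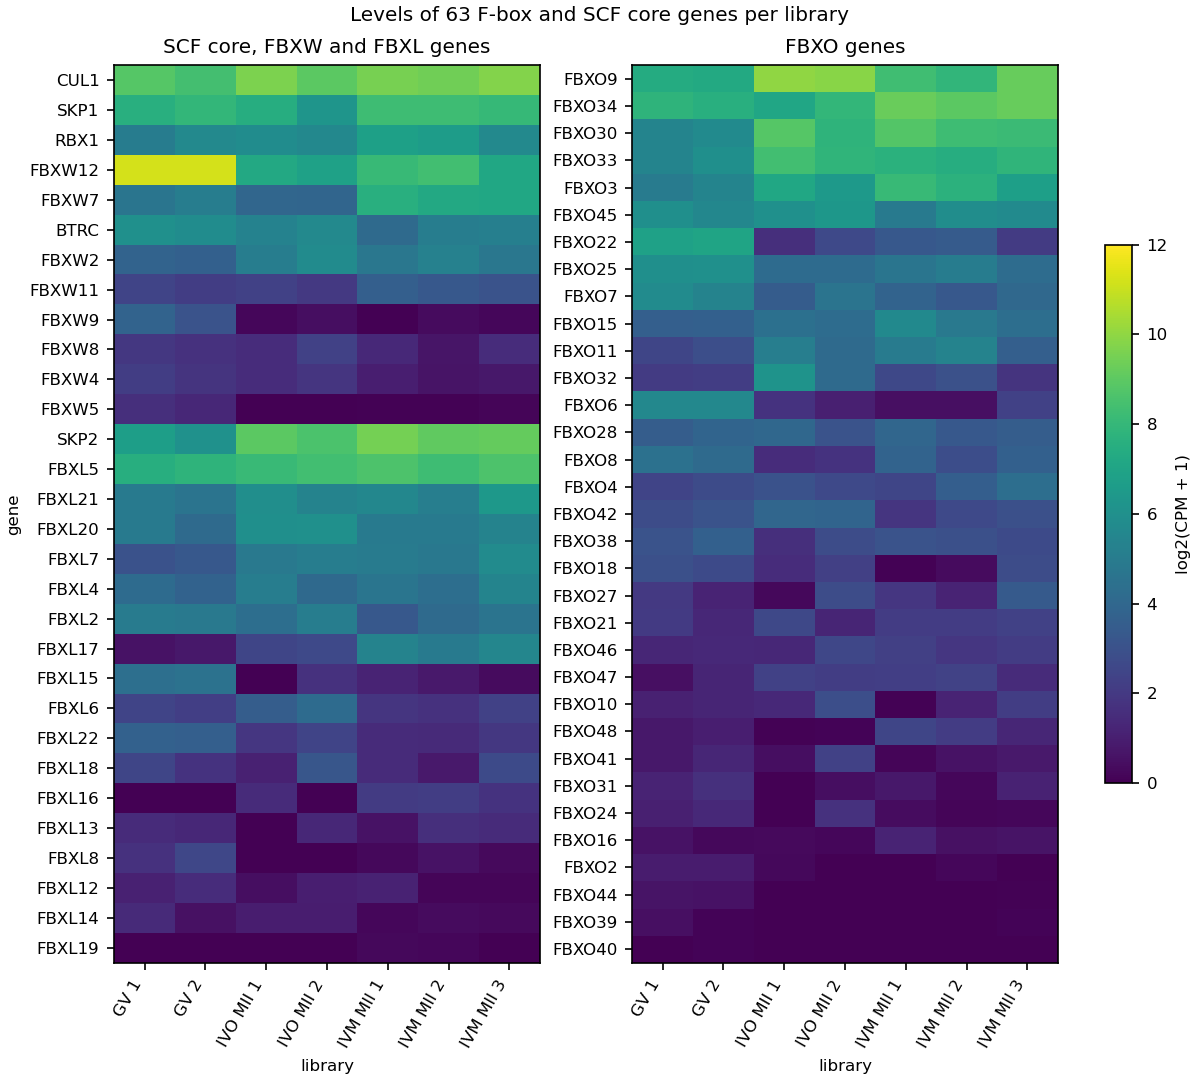
Level of 63 members (rows, ordered by role) in each of the 7 libraries (columns), as log2(CPM + 1). FBXW12 was the brightest row in both GV libraries, at 2406 and 2419 CPM, and had 114 to 329 CPM in the MII libraries.

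Most members were present at low levels, and fewer of them reached 1 CPM in each MII library than in either GV library. In GV, 53 and 55 of 64 members reached 1 CPM, against 46 and 51 in IVO MII and 44 to 49 in IVM MII, and 30 members in each GV library and 26 to 29 in the MII libraries reached 10 CPM. Members with 0 counts numbered 2 in each GV library, 8 and 10 in IVO MII and 3 to 5 in IVM MII. Such counts were not made over all genes, so they describe the members only. Across the 64 members, the Spearman correlation was 0.979 for the GV pair, 0.925 for the IVO MII pair and 0.930 to 0.969 among IVM MII libraries. With IVO MII replicates 1 and 2, IVM MII replicate 1 correlated at 0.896 and 0.872, replicate 2 at 0.921 and 0.900, and replicate 3 at 0.910 and 0.920, so replicates 2 and 3 were about equally close. Gene by gene, IVM MII replicate 3 was the one nearest to the IVO MII mean for 28 of 61 members, against 21 for replicate 2 and 13 for replicate 1, ties counting for each. These correlations are across genes, which are not independent, and they describe the libraries only.

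The F-box repertoire of the GV oocyte was dominated by FBXW12, a little-studied WD40-repeat F-box gene (chromosome 2, bases 103475855 to 103501282 of the table's unnamed build). FBXW12 had 2419 and 2406 CPM in GV, 149 and 114 CPM in IVO MII, and 270, 329 and 141 CPM in IVM MII. Every MII library lay far below both GV libraries. It fell by 4.19 on the log2 scale from GV to IVO MII (SE 0.48, edgeR adjusted p = 0.0021) and by 3.29 to IVM MII (SE 0.39, edgeR adjusted p = 0.0014). Both calls held when any one library was left out. Per kilobase, FBXW12 made up 75.0% and 75.2% of the summed level of the 61 F-box genes in GV, 7.41% and 8.41% in IVO MII, and 8.59% to 20.7% in IVM MII.

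The summed CPM of all F-box genes was 3930 and 3959 in GV, 3332 and 3973 in IVO MII, and 3624 to 4333 in IVM MII, and the libraries of the groups overlapped on this scale. With unscaled library totals the MII means were lower than GV, by 1.68-fold (IVO) and 1.65-fold (IVM). Per kilobase the scaled sum was also lower, at 2026 ± 5.25 CPM per kilobase in GV, against 1047 ± 104 in IVO MII (1.94-fold lower) and 1064 ± 75.9 in IVM MII (1.90-fold lower). Without FBXW12 the summed CPM was 1524 and 1539 CPM in GV, 3218 and 3824 in IVO MII, and 3294 to 4063 in IVM MII. The MII means were 2.30-fold (IVO) and 2.41-fold (IVM) above GV, and no MII library overlapped GV. The size of this ratio depended on scaling: with unscaled library totals it was 1.48-fold and 1.46-fold. Per kilobase, the unscaled sum without FBXW12 was only 1.23-fold (IVO) and 1.09-fold (IVM) above GV. On that measure IVM MII replicate 2 (710) lay below GV replicate 1 (717), so the groups overlapped. The 5 most abundant F-box genes of a library held 88.0% ± 0.153 of the summed level per kilobase in GV, against 67.4% ± 1.77 in IVO MII and 61.9% ± 1.53 in IVM MII.

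**Figure D2:**
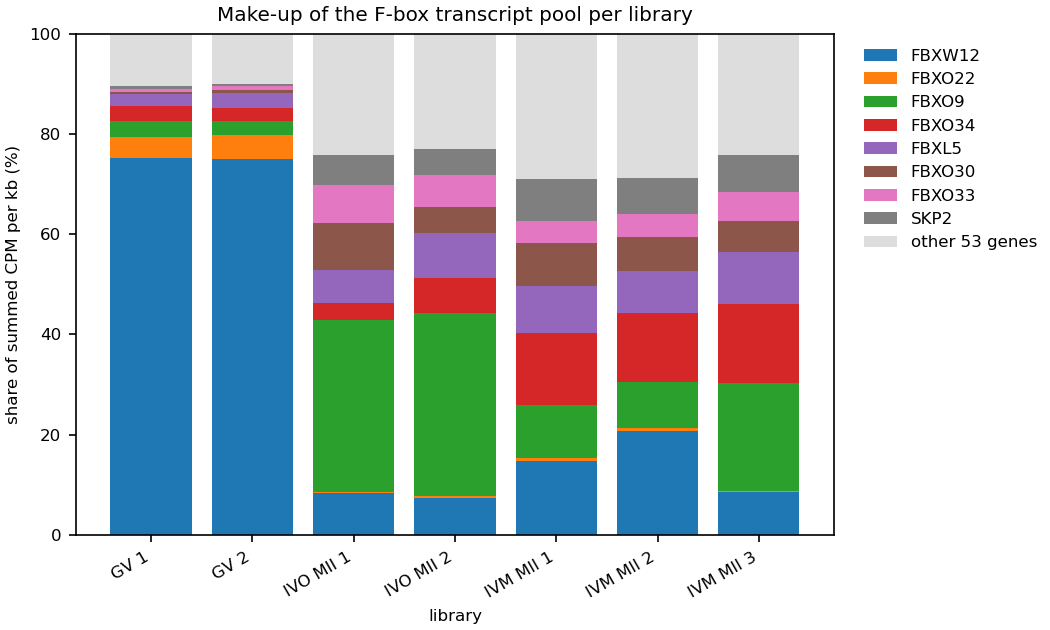
Share of the summed CPM per kilobase of the 61 F-box genes taken by 8 named genes and by the other 53, for each of the 7 libraries (bars, percent). FBXW12 filled 75.0% and 75.2% of the GV bars and 7.41% to 20.7% of the MII bars. The other named genes are FBXO22, FBXO9, FBXO34, FBXL5, FBXO30, FBXO33 and SKP2.

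Ranked per kilobase among all 64 members, the GV order was FBXW12 (1522 ± 6.06 CPM per kilobase), SKP1 (273 ± 47.1), FBXO22 (90.7 ± 5.93), CUL1 (79.7 ± 17.7) and FBXO9 (60.5 ± 3.23). The gaps from FBXW12 to SKP1 and from SKP1 to FBXO22 exceeded the SDs, and FBXO22 and CUL1 did not differ beyond their spread. In IVO MII the order was FBXO9 (370 ± 21.3), SKP1 (158 ± 91.5), CUL1 (131 ± 42.6), FBXW12 (83.1 ± 15.7) and FBXL5 (81.3 ± 9.45). FBXO9, which encodes an F-box protein known for regulating components of the mTOR pathway, stood clear of the others there. SKP1 and CUL1 did not differ beyond their spread, nor did FBXW12 and FBXL5, while the gap from CUL1 to FBXW12 exceeded both SDs. In IVM MII the order was SKP1 (370 ± 31.7), FBXO34 (156 ± 14.4), FBXW12 (156 ± 60.8), CUL1 (153 ± 21.2) and FBXO9 (145 ± 69.5), of which SKP1 alone stood apart. Without division by length, 3 of these 5 genes in each group stayed among the 5 highest.

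The core subunits did not pass the test in any comparison. SKP1, the adaptor (chromosome 6, bases 133175294 to 133194537), had 191 and 244 CPM in GV, 177 and 74.4 in IVO MII, and 310, 308 and 265 in IVM MII. All 3 IVM MII libraries were above every other library, and the IVO MII pair was spread widely. The difference of IVM from IVO MII was 1.23 on the log2 scale (SE 0.40, edgeR adjusted p = 0.138). Without IVO MII replicate 1, SKP1 passed in IVM against IVO MII (edgeR adjusted p = 0.0498) and in IVO MII against GV (edgeR adjusted p = 0.0329, downward).

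CUL1, the scaffold (chromosome 3, bases 181717244 to 181822020), had 460 and 335 CPM in GV, 802 and 502 in IVO MII, and 737, 676 and 882 in IVM MII. Every MII library lay above both GV libraries. The log2 difference from GV was 0.71 in IVO MII (SE 0.36, edgeR adjusted p = 0.163) and 0.94 in IVM MII (edgeR adjusted p = 0.054, SE 0.33). That second value passed when IVO MII replicate 1 (edgeR adjusted p = 0.0369) or replicate 2 (edgeR adjusted p = 0.0487) was left out of the shared fit.

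RBX1, the RING subunit (chromosome 10, bases 10179558 to 10203525), had 31.6 and 49.5 CPM in GV, 56.8 and 47.8 in IVO MII, and 112, 97.6 and 49.3 in IVM MII. IVM MII replicate 3 lay at the level of GV and IVO MII while the other IVM MII libraries were higher. Its log2 difference of IVM MII from GV was 1.09 (SE 0.43, edgeR adjusted p = 0.0781), and 0.018 was the edgeR adjusted p without that library.

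**Figure D3:**
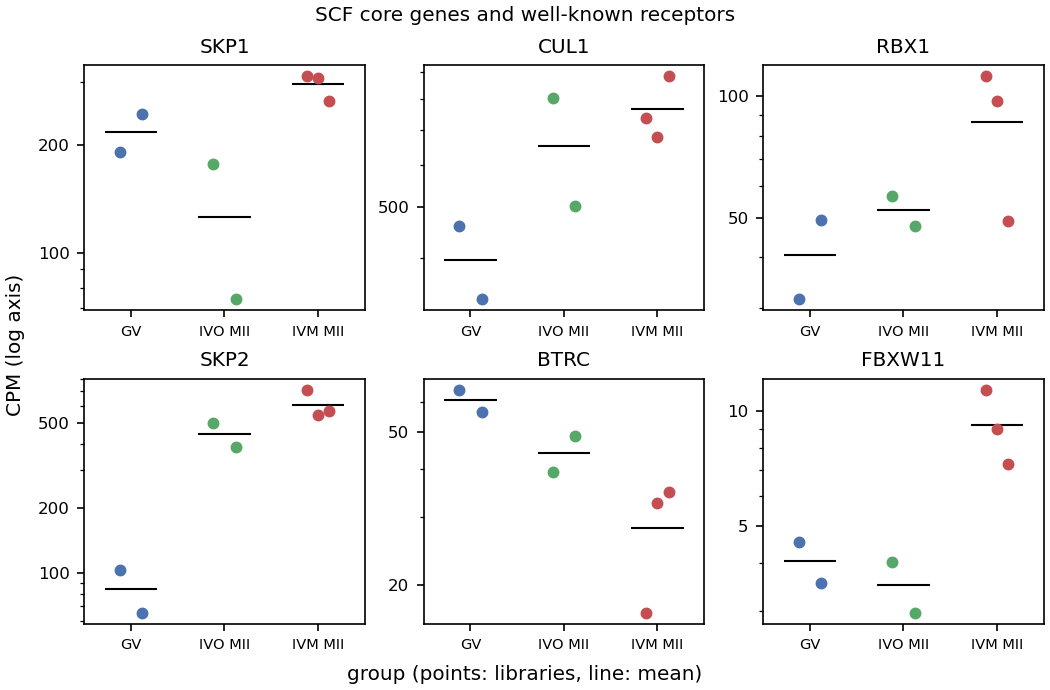
CPM (log axis) of the core genes SKP1, CUL1 and RBX1 and of the receptors SKP2, BTRC and FBXW11 in each library (points) with the group mean (line). SKP2 was at 65.4 and 104 CPM in GV and at 387 to 710 CPM in the MII libraries, while the other 5 genes were not called in the fit of all 7 libraries.

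Against GV, IVO MII differed in 21 of 61 tested members at an edgeR adjusted p under 0.05: 12 rose and 9 fell. That is 34.4% of members, where 28.1% of all 16374 genes tested were called. The median log2 fold change of the members was 0.20, against -0.16 for all genes. IVM MII differed from GV in 25 of 61 members, 15 up and 10 down, or 41.0% of members against 36.3% of all genes. Here the medians were 0.35 for the members and -0.10 for all genes. Both shares lie near those of all genes. At an unadjusted edgeR p under 0.05 the shares were 47.5% of members (29) against 42.1% of all genes in IVO MII, and 52.5% (32) against 47.5% in IVM MII. Libraries of IVO MII did not overlap with GV in 21 members that were higher (34.4%, against 32.0% of all genes) and 21 that were lower (34.4%, against 40.8%). For IVM MII these were 25 higher (41.0%, against 31.5%) and 21 lower (34.4%, against 37.5%). The direction split depended on scaling in IVM MII against GV, where RLE size factors gave 11 up and 12 down and upper quartile scaling gave 11 up and 11 down. Without GV replicate 1 the members called were 10 in IVO MII and 9 in IVM MII, and without GV replicate 2 they were 11 and 12. The calls over all genes fell alike, to 8.6% and 12.2% without GV replicate 1 and to 9.8% and 14.7% without GV replicate 2. In IVM MII against GV, leaving out IVM MII replicate 1 gave 16 members, with 26.1% of all genes.

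The comparisons with GV share the GV libraries, so their calls are given side by side. Of the tested members, 10 were called up in both, among them SKP2, FBXL7, FBXL17, FBXO3, FBXO9, FBXO11, FBXO30, FBXO33 and FBXW2. In both, 7 were called down (FBXW5, FBXW9, FBXW12, FBXL8, FBXO6, FBXO22 and FBXO25), and 32 were called in neither. Over all 16374 tested genes, 1962 were called up in both, 1559 down in both and 9372 in neither. Of all genes tested, 14.6% were called up and 13.5% down in IVO MII, and 18.5% up and 17.8% down in IVM MII; the classes hold too few genes to be set apart from these shares. By class, 1 FBXW gene rose and 3 fell in IVO MII out of 9, and 2 rose and 3 fell in IVM MII. Of 18 tested FBXL genes, 5 rose and 1 fell in IVO MII, and 6 rose and 3 fell in IVM MII. Of 31 tested FBXO genes, 6 rose and 5 fell in IVO MII, and 7 rose and 4 fell in IVM MII.

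**Figure D4:**
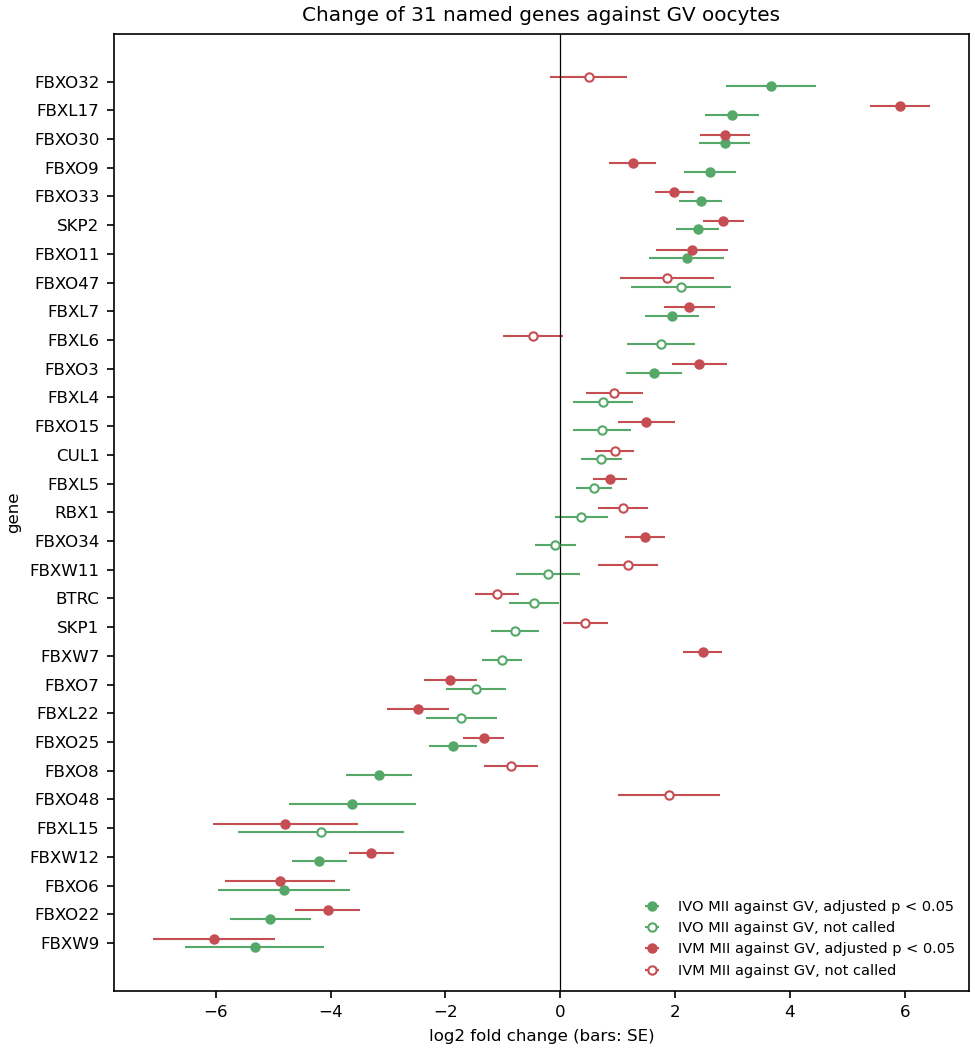
Log2 fold change from GV (x axis, with SE bars) of 31 named members (rows) in IVO MII (green) and IVM MII (red), filled where the edgeR adjusted p was under 0.05. FBXL17, FBXO30 and SKP2 lie to the right in both, FBXW9, FBXO6, FBXO22 and FBXW12 lie to the left in both, and FBXW7 lies on opposite sides, at -1.01 and 2.48.

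Among the WD40-repeat receptors, BTRC and FBXW11 are the close paralogues known as beta-TrCP, which bind doubly phosphorylated degrons in proteins such as beta-catenin and the meiotic inhibitors of the anaphase-promoting complex. BTRC (chromosome 9, bases 100298468 to 100505696) had 64.5 and 56.6 CPM in GV, 39.4 and 49 in IVO MII, and 16.9, 32.7 and 35 in IVM MII. All 3 groups were separate, with IVM MII lowest. The log2 difference from GV was -0.45 in IVO MII (edgeR adjusted p = 0.462) and -1.10 in IVM MII (edgeR adjusted p = 0.0539, SE 0.39), just outside the threshold. The latter passed with RLE size factors (edgeR adjusted p = 0.0323), without IVO MII replicate 2 (edgeR adjusted p = 0.0457) and without IVM MII replicate 3 (edgeR adjusted p = 0.0377).

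FBXW11 (chromosome 6, bases 171456456 to 171598688) was rarer, at 4.54 and 3.54 CPM in GV, 4.03 and 2.97 in IVO MII, and 11.4, 8.96 and 7.3 in IVM MII. Its IVM MII libraries were all above the others. The difference from IVO MII was 1.40 on the log2 scale (SE 0.53, edgeR adjusted p = 0.182), in the opposite direction to the -0.65 of BTRC (edgeR adjusted p = 0.371). Neither passed the test.

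FBXW7 encodes the receptor for cyclin E, MYC and other phosphorylated growth regulators. It lies on chromosome 5, bases 151555491 to 151766503, and had 24.7 and 32.6 CPM in GV, 14.4 and 14 in IVO MII, and 187, 150 and 141 in IVM MII. The groups did not overlap, and the IVM MII libraries were well above all others. FBXW7 rose by 2.48 on the log2 scale from GV to IVM MII (SE 0.34, edgeR adjusted p = 0.00176), a call that held without any one library. In IVO MII the value was -1.01 (SE 0.34, edgeR adjusted p = 0.0548), which passed without IVM MII replicate 3 (edgeR adjusted p = 0.034).

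FBXW9, of which little is known, had 13.2 and 7.46 CPM in GV and at most 0.347 CPM in any MII library. It fell by 5.32 in IVO MII (SE 1.21, edgeR adjusted p = 0.0132) and by 6.03 in IVM MII (edgeR adjusted p = 0.00365, SE 1.06) on the log2 scale. The IVO MII call was lost without GV replicate 1 (edgeR adjusted p = 0.113) or IVO MII replicate 1 (edgeR adjusted p = 0.0602). FBXW5 and FBXW2 are named because they were called, after their values were seen. FBXW5 had 2.03 and 1.55 CPM in GV, 0 counts in each IVO MII library, at least 13.3-fold lower, and at most 0.113 CPM in IVM MII. FBXW2 rose from 12.6 ± 0.892 CPM in GV to 43.7 ± 15.6 in IVO MII (edgeR adjusted p = 0.017, log2 fold change 1.79, SE 0.43) and 29.9 ± 6.67 in IVM MII (edgeR adjusted p = 0.0403, log2 fold change 1.24, SE 0.40). Leaving out GV replicate 1 or GV replicate 2 ended the calls of FBXW5 and FBXW2 in both comparisons (edgeR adjusted p 0.119 to 0.274), and FBXW2 in IVM MII also missed the threshold with RLE size factors (edgeR adjusted p = 0.0548). Without IVO MII replicate 2 the IVO MII call of FBXW2 was lost (edgeR adjusted p = 0.0641), and the IVM MII calls of both genes were lost without IVM MII replicate 1 or 2 (edgeR adjusted p 0.0536 to 0.103).

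Among the leucine-rich-repeat receptors, SKP2 directs the degradation of the CDK inhibitor p27 and lies on chromosome 6, bases 36565618 to 36597537. It had 104 and 65.4 CPM in GV, 501 and 387 in IVO MII, and 710, 540 and 565 in IVM MII. GV was lowest and IVM MII highest, with no overlap between the 3 groups. SKP2 rose by 2.39 in IVO MII (SE 0.37, edgeR adjusted p = 0.00327) and by 2.84 in IVM MII (edgeR adjusted p = 0.00156, SE 0.36) on the log2 scale, and both calls held without any one library. The log2 difference between IVM and IVO MII was 0.45 (SE 0.32, edgeR adjusted p = 0.456).

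FBXL5, whose protein senses iron and targets iron regulatory proteins, was already abundant in GV, at 183 and 224 CPM. It had 280 and 330 CPM in IVO MII and 399, 311 and 403 in IVM MII. All MII libraries were above GV, by 0.58 on the log2 scale in IVO MII (SE 0.31, edgeR adjusted p = 0.194) and by 0.86 in IVM MII (edgeR adjusted p = 0.0476, SE 0.29). This call was marginal: RLE size factors ended it (edgeR adjusted p = 0.0843), as did leaving out any library except IVO MII replicate 1 (edgeR adjusted p 0.0566 to 0.344).

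FBXL17 encodes a quality-control receptor that recognises wrongly paired BTB-domain proteins (chromosome 6, bases 106589326 to 107145680). It was measured at a low level in GV, at 0.514 and 0.727 CPM, and had 4.69 and 5.24 CPM in IVO MII and 39.9, 29.2 and 44 CPM in IVM MII. The groups formed separate steps. FBXL17 rose by 2.99 in IVO MII (SE 0.48, edgeR adjusted p = 0.00358) and by 5.91 in IVM MII (edgeR adjusted p = 0.00117, SE 0.52), and neither call was lost without any one library. Of its exon bases, 8.04% overlap a gene on the opposite strand, LOC102142523, and the strand setting of the counting is not given in the sources used here.

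FBXL7, reported to target Aurora A kinase, rose from 7.92 ± 1.146 CPM in GV to 30.5 ± 3.37 in IVO MII (edgeR adjusted p = 0.0163, log2 fold change 1.95, SE 0.47) and 37.6 ± 15 in IVM MII (edgeR adjusted p = 0.00595, log2 fold change 2.25, SE 0.45). Both were lost without GV replicate 1 (edgeR adjusted p = 0.143 and 0.0778) or GV replicate 2 (edgeR adjusted p = 0.0958 and 0.0503). FBXL4, whose loss causes a mitochondrial DNA depletion disorder, had 14.8 ± 3.32 CPM in GV, against 24.9 ± 11.9 in IVO MII and 28.5 ± 11.5 in IVM MII. It was not called in either comparison.

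FBXL15 and FBXL22 were low in MII. FBXL15, known for targeting the ubiquitin ligase SMURF1, had 20.1 and 22.3 CPM in GV, 0 and 2.31 in IVO MII, and 1.29, 0.761 and 0.263 in IVM MII. It fell by 4.79 on the log2 scale in IVM MII (SE 1.26, edgeR adjusted p = 0.0189), while the -4.17 of IVO MII did not pass (SE 1.44, edgeR adjusted p = 0.0602). FBXL22, known as a cardiac muscle F-box gene, had 11.9 ± 0.392 CPM in GV and fell to 2.12 ± 0.674 in IVM MII (edgeR adjusted p = 0.00915, log2 fold change -2.48, SE 0.55), with -1.72 in IVO MII (edgeR adjusted p = 0.0653). The IVM MII calls of both were lost without GV replicate 1 (edgeR adjusted p = 0.0584 and 0.0786) or GV replicate 2 (edgeR adjusted p = 0.0626 and 0.0655), and that of FBXL15 also without IVM MII replicate 2 (edgeR adjusted p = 0.0611). The IVO MII value of FBXL15 passed without IVO MII replicate 2 (edgeR adjusted p = 0.00598), and that of FBXL22 without IVM MII replicate 3 (edgeR adjusted p = 0.0452).

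FBXL8, FBXL16 and FBXL20 are named because they were called, after their values were seen. FBXL8 had 2.27 and 4.93 CPM in GV and 0 counts in each IVO MII library, at least 26.8-fold lower, and 0.316 ± 0.166 CPM in IVM MII. FBXL16 showed the reverse, with 0 counts in both GV libraries and 3.04 ± 0.571 CPM in IVM MII, at least 32.8-fold higher, while 1 IVO MII library had 1.78 CPM and the other 0. FBXL20 rose from 22.6 ± 8.14 CPM in GV to 63.3 ± 2.04 in IVO MII (edgeR adjusted p = 0.0278, log2 fold change 1.48, SE 0.41) and had 33 ± 6.37 in IVM MII. These calls were sensitive to single libraries. FBXL8 was lost without GV replicate 2 in both comparisons (edgeR adjusted p = 0.0861 in IVO MII and 0.355 in IVM MII) and, in IVM MII, without GV replicate 1 and IVM MII replicates 1 and 3 (edgeR adjusted p 0.0565 to 0.124). FBXL16 was lost without either GV library or IVM MII replicate 1 or 2 (edgeR adjusted p 0.0503 to 0.109), and FBXL20 without either GV or either IVO MII library (edgeR adjusted p 0.0657 to 0.25).

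Among the FBXO genes, FBXO9, FBXO30 and FBXO33 rose several-fold. FBXO9 (chromosome 4, bases 117641949 to 117679195) had 167 and 154 CPM in GV, 1021 and 941 in IVO MII, and 318, 241 and 592 in IVM MII. IVO MII was highest, and IVM MII lay between the other groups. It rose by 2.61 in IVO MII (SE 0.46, edgeR adjusted p = 0.00487) and by 1.26 in IVM MII (edgeR adjusted p = 0.0412, SE 0.41). The smaller rise in IVM MII was lost with RLE size factors (edgeR adjusted p = 0.0586) and with every library left out except IVO MII replicate 1 and IVM MII replicate 2 (edgeR adjusted p 0.0564 to 0.206).

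FBXO30, which encodes a receptor for the spindle kinesin Eg5 that has been studied in mouse oocyte meiosis, had 42.2 and 51.7 CPM in GV, 463 and 221 in IVO MII, and 437, 304 and 286 in IVM MII. The MII libraries overlapped fully and stood above GV. FBXO30 rose by 2.86 (SE 0.45, edgeR adjusted p = 0.00338) in IVO MII and by 2.87 (SE 0.43, edgeR adjusted p = 0.00223) in IVM MII. FBXO33, a receptor reported for the RNA-binding protein YBX1, had 41.4 and 61.4 CPM in GV, 326 and 234 in IVO MII, and 199, 178 and 233 in IVM MII. It rose by 2.44 (SE 0.37, edgeR adjusted p = 0.0031) and by 1.99 (SE 0.34, edgeR adjusted p = 0.00344). Of these calls, that of FBXO33 in IVM MII was lost without GV replicate 1 (edgeR adjusted p = 0.0572).

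FBXO3 and FBXO11 also rose in both kinds of MII oocyte. FBXO3, which targets the F-box protein FBXL2, had 31 and 42.2 CPM in GV, 143 and 85 in IVO MII, and 268, 211 and 110 in IVM MII, with log2 fold changes of 1.64 (SE 0.49, edgeR adjusted p = 0.0359) and 2.42 (SE 0.48, edgeR adjusted p = 0.00558). FBXL2 itself had 29 ± 2.12 CPM in GV, against 26.1 ± 9.66 in IVO MII and 16.3 ± 7.34 in IVM MII and was not called. FBXO11, a receptor for BCL6 and other transcription regulators, had 5.54 ± 1.33 CPM in GV, against 25.6 ± 12.4 in IVO MII and 27.3 ± 14.4 in IVM MII, with log2 fold changes of 2.20 (SE 0.65, edgeR adjusted p = 0.0357) and 2.30 (SE 0.62, edgeR adjusted p = 0.0211). Both IVO MII calls were lost without GV replicate 1, GV replicate 2, IVO MII replicate 1 or 1 of the IVM MII libraries (replicate 2 for FBXO3, replicate 1 for FBXO11; edgeR adjusted p 0.0529 to 0.219). In IVM MII, FBXO3 was lost without GV replicate 1 (edgeR adjusted p = 0.0618), and FBXO11 without either GV library or IVM MII replicate 1 or 2 (edgeR adjusted p 0.0536 to 0.154). With RLE size factors, FBXO3 in IVO MII missed the threshold (edgeR adjusted p = 0.0517).

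FBXO34, which has been studied in the control of meiotic resumption in mouse oocytes, had 220 and 190 CPM in GV, 137 and 248 in IVO MII, and 608, 510 and 590 in IVM MII. The GV and IVO MII libraries overlapped, and all IVM MII libraries were above them. It rose by 1.47 on the log2 scale from GV to IVM MII (SE 0.34, edgeR adjusted p = 0.0114), and the value for IVO MII was -0.09 (SE 0.36, edgeR adjusted p = 0.873). FBXO15, known as a marker of mouse pluripotent cells, had 11.5 ± 0.385 CPM in GV, against 19.1 ± 1.75 in IVO MII and 32.7 ± 16.7 in IVM MII, with 51.3 CPM in IVM MII replicate 1 and 19.1 in replicate 3. Its rise in IVM MII of 1.502 (SE 0.49, edgeR adjusted p = 0.0411) was lost with RLE size factors (edgeR adjusted p = 0.0595) and without any library except IVO MII replicate 1 and IVM MII replicate 3 (edgeR adjusted p 0.0546 to 0.221). The call of FBXO34 was lost without GV replicate 1 (edgeR adjusted p = 0.0834) or GV replicate 2 (edgeR adjusted p = 0.113).

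FBXO47, which is needed for stable chromosome synapsis in mouse meiosis, was rare. It had 0.393 and 1.36 CPM in GV, 3.97 and 3.59 in IVO MII, and 3.65, 4.14 and 1.81 in IVM MII. All MII libraries were above GV, by 2.10 (SE 0.88, edgeR adjusted p = 0.102) and 1.86 (SE 0.82, edgeR adjusted p = 0.106) on the log2 scale, and neither difference passed.

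FBXO22 and FBXO6 fell steeply in both comparisons with GV. FBXO22, a receptor for histone demethylases of the KDM4 family (chromosome 7, bases 54167486 to 54197086), had 116 and 127 CPM in GV, 2.09 and 5.21 in IVO MII, and 8.85, 9.93 and 3.23 in IVM MII. It fell by 5.05 in IVO MII (SE 0.71, edgeR adjusted p = 0.00263) and fell by 4.05 in IVM MII (edgeR adjusted p = 0.00185, SE 0.57), and both calls held without any one library. FBXO22, the highest F-box gene after FBXW12 per kilobase in GV, was thereby below 10 CPM in every MII library.

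FBXO6 (chromosome 1, bases 216451190 to 216460702) binds N-glycans on misfolded glycoproteins during their clearance from the endoplasmic reticulum. It had 47.9 and 48 CPM in GV, 2.34 and 1.08 in IVO MII, and 0.429, 0.423 and 3.95 in IVM MII. IVM MII replicate 3 was higher than the other IVM MII libraries and still far below GV. FBXO6 fell by 4.81 (SE 1.14, edgeR adjusted p = 0.0157) and by 4.88 (SE 0.96, edgeR adjusted p = 0.00569), and the IVO MII call was lost without IVO MII replicate 1 (edgeR adjusted p = 0.0575) or 2 (edgeR adjusted p = 0.0759). Its chromosomal neighbours of the same glycan-binding family, FBXO44 and FBXO2, were near the floor: FBXO44 had 0.525 ± 0.0272 CPM in GV and FBXO2 had 0.881 ± 0.00589, and in MII libraries neither exceeded 0.204 CPM. Another gene of that family in the set, FBXO27 on chromosome 19, had 2.15 ± 1.2, 3.11 ± 4.11 and 4.52 ± 4.42 CPM in GV, IVO MII and IVM MII. None of these 3 was called.

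FBXO25 (chromosome 8, bases 317756 to 383211) had 61.2 and 64.5 CPM in GV, 17.3 and 17.1 in IVO MII, and 24.7, 32.2 and 17.7 in IVM MII. It fell by 1.87 (SE 0.41, edgeR adjusted p = 0.0116) and by 1.34 (SE 0.36, edgeR adjusted p = 0.0203). FBXO7, a Parkinson disease gene whose protein also acts on proteasomes and mitophagy, had 54.1 and 39.7 CPM in GV, 10.1 and 23.6 in IVO MII, and 13, 8.75 and 15.6 in IVM MII. It fell by 1.91 in IVM MII (SE 0.47, edgeR adjusted p = 0.0137), while -1.47 in IVO MII did not pass (SE 0.52, edgeR adjusted p = 0.0656). Without GV replicate 1 the IVM MII call of FBXO7 was lost (edgeR adjusted p = 0.113), and both calls of FBXO25 were lost without either GV library (edgeR adjusted p 0.0695 to 0.133). FBXO25 in IVM MII was also lost without IVM MII replicate 1 (edgeR adjusted p = 0.0571), and FBXO7 in IVO MII passed without IVO MII replicate 2 (edgeR adjusted p = 0.0313).

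The 32 members called in neither comparison were mostly rare, with a median level of 3.24 CPM in GV, against 3.64 in IVO MII and 3.27 CPM in IVM MII. All 9372 tested genes called in neither had similar medians, at 3.81, 3.31 and 3.06 CPM. The 32 members include the core, FBXO45, BTRC, FBXL2 and FBXL21. FBXO45, which forms an unusual ligase in neurons, had 61.2 and 45.4 CPM in GV, 64.5 and 81.4 in IVO MII, and 28.7, 57.9 and 52.7 in IVM MII. FBXL21 had 26.4 ± 3.74 CPM in GV, against 49.9 ± 14.3 in IVO MII and 54.3 ± 25.7 in IVM MII. FBXO28 had the steadiest group means of the 32, at 12 ± 1.95 CPM in GV, against 11.4 ± 5.49 in IVO MII and 11.4 ± 3.02 in IVM MII. FBXO4 and FBXO31, both reported as receptors for cyclin D1, had 5.05 ± 0.859 and 1.73 ± 0.645 CPM in GV. FBXO42, a receptor reported for p53, had 6.62 ± 1.06 CPM in GV, against 14.3 ± 0.653 in IVO MII and 4.81 ± 1.98 in IVM MII, with both IVO MII libraries above all others. FBXW4, a neighbour of BTRC on chromosome 9, had 2.97 ± 0.715 CPM in GV and 0.761 ± 0.238 CPM in IVM MII. Apart from BTRC, these members were chosen for naming after their values were seen. The 3 untested members, FBXL19, FBXO39 and FBXO40, did not exceed 0.423 CPM in any library.

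Genes called up in both comparisons with GV had longer deposited features than genes called down in both. For members the median length was 4423 bases for the 10 that rose (2651 to 8583) and 1848 bases for the 7 that fell (1343 to 2569), with 3601.5 bases for the 32 called in neither. Over all tested genes the same medians were 4428.5 bases (1962 genes), 1885 bases (1559 genes) and 3031 bases (9372 genes). The members thus showed the same length pattern as all genes, and its part in the results was not tested.

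Between MII oocytes matured in vitro and in vivo, 2 of 61 tested members were called, FBXW7 and FBXL17, both higher in IVM MII. That is 3.28% of members, against 1.47% of all genes tested, a share that rests on 2 genes. No member was called lower. At an unadjusted edgeR p under 0.05 there were 14 members, 23.0%, against 21.1% of all genes, which is about the background share. IVM and IVO MII libraries did not overlap in 13 members that were higher in IVM MII (21.3%, against 17.8% of all genes) and 10 that were lower (16.4%, against 16.0%). The median log2 difference of the members was 0.12, against 0 for all genes. Other tools called more members and also more of all genes: DESeq2 called 10 members (6 higher and 4 lower) and 9.4% of all genes, limma voom 3 members and 3.04%, and the newer edgeR fit 7 members (5 higher and 2 lower) and 4.73%.

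FBXW7 was 3.49 higher on the log2 scale in IVM than in IVO MII (SE 0.36, edgeR adjusted p = 0.00823), with 141 to 187 CPM against 14 and 14.4. FBXL17 was 2.92 higher (SE 0.44, edgeR adjusted p = 0.0271), with 29.2 to 44 CPM against 4.69 and 5.24. For FBXW7 the IVO MII level lay below GV and the IVM MII level above it, whereas FBXL17 had risen in both. Each was higher in 3 of 3 IVM MII libraries than in either IVO MII library. Both calls missed the threshold without IVO MII replicate 2 (edgeR adjusted p = 0.0641 for FBXW7 and 0.101 for FBXL17), without IVM MII replicate 1 (edgeR adjusted p = 0.0552 and 0.0925) and without IVM MII replicate 2 (edgeR adjusted p = 0.0528 and 0.0999). The call of FBXL17 also ended without IVO MII replicate 1 (edgeR adjusted p = 0.0519), without GV replicate 2 (edgeR adjusted p = 0.0532) and in a fit of the compared groups alone (edgeR adjusted p = 0.0522). Summed cumulus and granulosa markers were likewise higher in IVM MII (97.2 to 217 CPM) than in IVO MII (61.4 and 102 CPM), with overlap. The highest value of a single marker in a library was 149 CPM in IVM MII and 46.1 CPM in IVO MII. The part of these markers in these differences was not tested.

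The next 6 members by p did not pass. FBXO48, whose protein has been linked to AMPK turnover, had 0.696 and 1.01 CPM in GV, 3 counts in all in IVO MII, and 4.67, 3.42 and 1.47 CPM in IVM MII. The ratio of IVM to IVO MII was 45.6 (95% counting interval 15.4 to 223, counting error only; edgeR adjusted p = 0.0546). From GV to IVO MII it was called down, with a ratio of 12.9 (95% counting interval 4.19 to 64.5; edgeR adjusted p = 0.0395). That call was lost when any library but IVM MII replicate 3 was left out (edgeR adjusted p 0.0501 to 0.172), without the filter on low counts (edgeR adjusted p = 0.0504) and with limma voom (adjusted p = 0.0865). The difference of FBXO48 between IVM and IVO MII passed without IVM MII replicate 3 (edgeR adjusted p = 0.0275).

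FBXO32, the muscle-atrophy receptor atrogin-1 (chromosome 8, bases 124841679 to 124885278), had 3.24 and 3.54 CPM in GV, 69.7 and 16.6 in IVO MII, and 5.04, 6.8 and 2.48 in IVM MII. The IVO MII libraries were highest and far apart from each other, and the IVM MII libraries spanned the GV level. It rose by 3.67 from GV to IVO MII (SE 0.79, edgeR adjusted p = 0.0104), and IVM MII differed from IVO MII by -3.18 (SE 0.66, edgeR adjusted p = 0.0552). The rise was lost without GV replicate 1, GV replicate 2 or IVO MII replicate 1 (edgeR adjusted p 0.0631 to 0.0725).

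FBXO8, which carries a Sec7 domain and has been linked to the small GTPase ARF6, had 21 and 16.9 CPM in GV, 1.89 and 2.35 in IVO MII, and 13, 6.25 and 11.9 in IVM MII. IVM MII lay between GV and IVO MII without overlap. FBXO8 fell by 3.16 from GV to IVO MII (SE 0.57, edgeR adjusted p = 0.00549), a call kept without any one library. The value for IVM MII against GV was -0.86 (SE 0.47, edgeR adjusted p = 0.179), and IVM exceeded IVO MII by 2.29 (SE 0.53, edgeR adjusted p = 0.0662). Of its exon bases, 14.8% overlap CEP44 on the opposite strand.

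FBXL6 had 4.57 and 3.73 CPM in GV, 10.5 and 17.4 in IVO MII, and 2.58, 2.32 and 4.06 in IVM MII. IVO MII was highest, with a log2 difference of -2.22 for IVM against IVO MII (SE 0.52, edgeR adjusted p = 0.0686) and 1.75 for IVO MII against GV (SE 0.59, edgeR adjusted p = 0.0554). FBXO34 was 1.56 higher in IVM than in IVO MII (SE 0.34, edgeR adjusted p = 0.06), and FBXO9 was 1.35 lower (SE 0.39, edgeR adjusted p = 0.104). Leaving out IVM MII replicate 3 moved the differences of FBXL6, FBXO34 and FBXO9 past the threshold (edgeR adjusted p = 0.0406, 0.0459 and 0.0184). That library was the IVM MII library nearest to the IVO MII mean for FBXL6 and FBXO9, so a wider gap there follows from leaving it out. For FBXO34 another IVM MII library was nearer. Without IVM MII replicate 3, 6 members were called, with 7.89% of all genes.

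**Figure D5:**
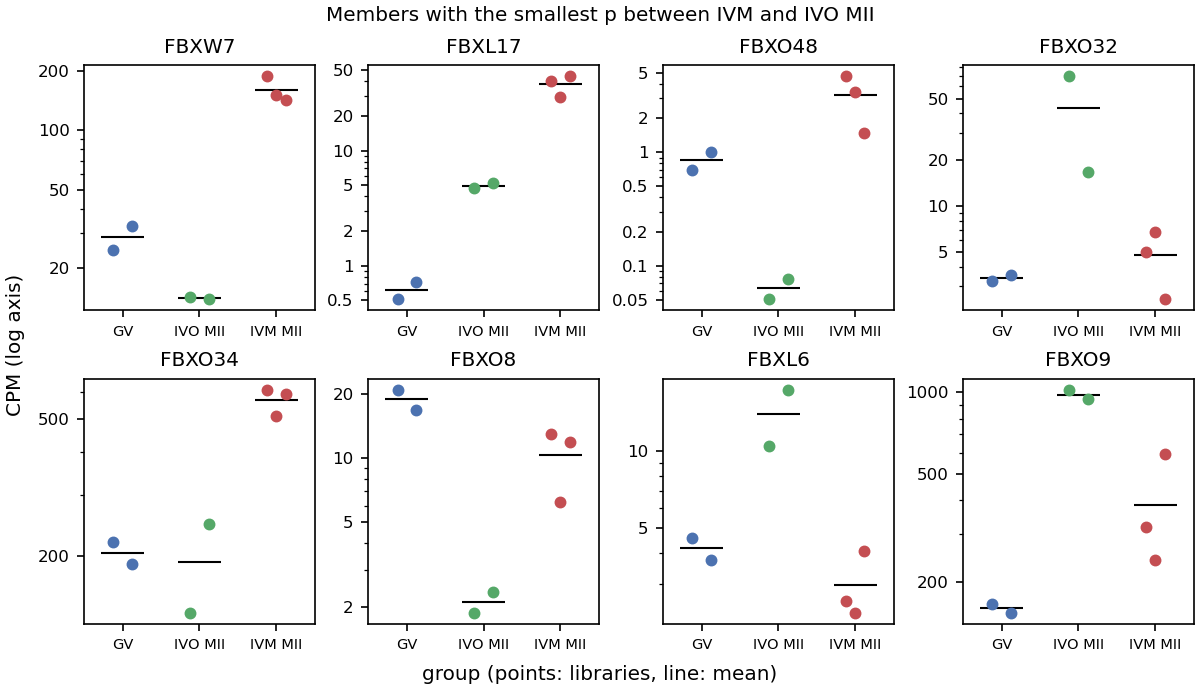
CPM (log axis) of the 8 members with the smallest p between IVM and IVO MII in each library (points) with the group mean (line). The IVM MII libraries are above the IVO MII libraries for FBXW7, FBXL17, FBXO48, FBXO34 and FBXO8 and below them for FBXO32, FBXL6 and FBXO9, and FBXW7 and FBXL17 passed the test.

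SCF activity also depends on NEDD8, a ubiquitin-like protein whose attachment to CUL1 switches the ligase on. Of 11 genes of this pathway, 0 rose and 2 fell in IVO MII (median log2 fold change 0.27), and 3 rose and 2 fell in IVM MII (median 0.17). The medians of all genes were -0.16 and -0.10, with 14.6% called up and 13.5% down in IVO MII and 18.5% up and 17.8% down in IVM MII, so the counts of this list lie near the background. NEDD8 had 34.2 and 56.7 CPM in GV, 3.82 and 1.97 in IVO MII, and 12.1, 15.8 and 4.02 in IVM MII. It fell by 3.98 in IVO MII (SE 0.75, edgeR adjusted p = 0.00622) and by 2.10 in IVM MII (edgeR adjusted p = 0.0255, SE 0.60), the latter call being lost without either GV library or IVM MII replicate 1 (edgeR adjusted p 0.0591 to 0.173). UBE2F, the NEDD8-conjugating enzyme best known for CUL5, fell by 2.07 (edgeR adjusted p = 0.0287) and by 2.53 (edgeR adjusted p = 0.00603). DCUN1D4, a co-ligase for NEDD8, rose by 1.82 (edgeR adjusted p = 0.00644) and RNF7, a relative of RBX1, by 1.04 (edgeR adjusted p = 0.0333) in IVM MII. Leaving out GV replicate 1 ended the calls of DCUN1D4 (edgeR adjusted p = 0.0949) and RNF7 (edgeR adjusted p = 0.301), and RNF7 was also lost without GV replicate 2 (edgeR adjusted p = 0.159) and without IVM MII replicate 1 or 2 (edgeR adjusted p = 0.0807 and 0.0679) and with RLE size factors (edgeR adjusted p = 0.0576). The IVO MII call of UBE2F was lost without either GV or either IVO MII library (edgeR adjusted p 0.084 to 0.147).

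The COP9 signalosome removes NEDD8 again, and CAND1 exchanges F-box modules on CUL1. Of 13 measured genes of this list, 1 rose and 6 fell in IVO MII (median log2 fold change -1.80), and 2 rose and 7 fell in IVM MII (median -1.37). Over all genes, 13.5% fell in IVO MII and 17.8% in IVM MII, with 14.6% and 18.5% up and medians of -0.16 and -0.10. COPS5, the catalytic subunit, had 82.4 and 100 CPM in GV, 13.2 and 7.29 in IVO MII, and 6.01, 8.75 and 8.09 in IVM MII. It fell by 3.15 (SE 0.46, edgeR adjusted p = 0.00289) and by 3.58 (SE 0.40, edgeR adjusted p = 0.00137). COPS3, a structural subunit, fell from 387 ± 12.5 CPM in GV to 86.4 ± 9.67 in IVO MII and 55.6 ± 16.5 in IVM MII, and COPS6, the partner of COPS5, from 67.5 ± 3.84 to 9.05 ± 3.07 and 15.2 ± 2.26. Their calls and those of COPS5 held without any one library. SENP8, a NEDD8 protease, fell by 1.80 in IVO MII (edgeR adjusted p = 0.00941), a call lost without GV replicate 1 (edgeR adjusted p = 0.0619) or 2 (edgeR adjusted p = 0.0691). GPS1, another subunit, fell from 22.8 ± 1.64 CPM in GV to 0.166 ± 0.219 in IVM MII (log2 fold change -6.97, edgeR adjusted p = 0.00675). In IVO MII its log2 fold change was -5.16 (edgeR adjusted p = 0.037). SENP8 and GPS1 were thus called down in both comparisons with GV. The genes that rose were CAND1 in both comparisons and the RBX1 inhibitor GLMN in IVM MII.

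Of 9 ubiquitin-conjugating partners of SCF, 4 rose and 1 fell in IVO MII (median log2 fold change 1.22), and 5 rose and 2 fell in IVM MII (median 1.21). The shares of all genes were 14.6% up and 13.5% down in IVO MII and 18.5% up and 17.8% down in IVM MII, with medians of -0.16 and -0.10. UBE2R2, a chain-extending enzyme, rose from 26.2 ± 1.88 CPM in GV to 95.5 ± 10.2 in IVO MII and 68 ± 8.1 in IVM MII. UBE2D3, a chain-starting enzyme and the most abundant of those named, rose from 1261 ± 210 to 2938 ± 407 and 2910 ± 198 CPM. UBE2G1 rose by 1.54 in IVO MII (edgeR adjusted p = 0.0208) and by 2.79 in IVM MII (edgeR adjusted p = 0.00187), and UBE2D2 by 2.47 in IVM MII (edgeR adjusted p = 0.012). UBE2D4 fell by 2.39 (edgeR adjusted p = 0.0124) and by 2.62 (edgeR adjusted p = 0.00379). Leaving out either GV library ended the IVO MII calls of UBE2R2, UBE2D3, UBE2G1 and UBE2D4 (edgeR adjusted p 0.0547 to 0.182) and the IVM MII calls of UBE2R2 and UBE2D2 (edgeR adjusted p 0.0608 to 0.14). The IVO MII calls of UBE2D4 (edgeR adjusted p 0.0505 to 0.0536), UBE2D3 (0.0504, replicate 2) and UBE2G1 (0.0779, replicate 1) were also lost without IVO MII libraries.

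Of 7 other cullins, 3 rose and 1 fell in IVO MII (median 1.25), and 2 rose and 0 fell in IVM MII (median 2.19). All genes had 14.6% up and 13.5% down in IVO MII (median -0.16) and 18.5% up and 17.8% down in IVM MII (median -0.10), and a list of 7 genes is too short to be set against these shares. CUL5 rose from 87.9 ± 15.7 CPM in GV to 399 ± 43.4 in IVO MII and 399.9 ± 55.3 in IVM MII, and these calls held without any one library. CUL4B rose by 1.14 in IVO MII (edgeR adjusted p = 0.0417) and by 2.39 in IVM MII (edgeR adjusted p = 0.00209), CUL4A rose by 1.34 in IVO MII (edgeR adjusted p = 0.0339), and CUL2 fell by 2.34 there (edgeR adjusted p = 0.0188). In IVO MII the calls of CUL4A, CUL4B and CUL2 were lost without GV replicate 1, GV replicate 2 or IVO MII replicate 1 (edgeR adjusted p 0.0576 to 0.29), and those of CUL4A and CUL4B also without IVO MII replicate 2 or IVM MII replicate 2 (edgeR adjusted p 0.0513 to 0.0645). CUL4B was lost as well without IVM MII replicate 1 (edgeR adjusted p = 0.063) and with RLE size factors (edgeR adjusted p = 0.0655). Of 4 tested F-box genes with other symbols, CCNF, which encodes cyclin F, fell by 3.71 in IVO MII (edgeR adjusted p = 0.0134) and by 2.37 in IVM MII (edgeR adjusted p = 0.0275), and LMO7 rose by 2.11 in IVM MII (edgeR adjusted p = 0.0111). The CCNF calls were lost without either GV library (edgeR adjusted p 0.0506 to 0.304), in IVM MII also without IVM MII replicate 1 or 3 (edgeR adjusted p = 0.0663 and 0.0528), and that of LMO7 without GV replicate 2 (edgeR adjusted p = 0.125).

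Of 31 tested genes that encode known SCF substrates, 11 rose and 1 fell in IVO MII (median 0.49), and 10 rose and 2 fell in IVM MII (median 0.58). That is 12 called of 31 in each comparison, where 28.1% and 36.3% of all genes were called (14.6% and 18.5% up, 13.5% and 17.8% down, medians -0.16 and -0.10), so in IVM MII the total is about the background share. CRY1, a circadian cryptochrome, had 49.5 and 46.2 CPM in GV, 372 and 180 in IVO MII, and 247, 247 and 185 in IVM MII. It rose by 2.53 (SE 0.42, edgeR adjusted p = 0.00402) and by 2.24 (SE 0.39, edgeR adjusted p = 0.00362). IREB2, the iron regulatory protein targeted by FBXL5, rose by 2.91 in IVM MII (SE 0.52, edgeR adjusted p = 0.00373). The centriolar gene CCP110 rose by 2.17 in IVO MII (edgeR adjusted p = 0.00316), the transcription repressor REST by 2.46 in IVO MII (edgeR adjusted p = 0.00392) and FOXO3 by 2.12 in IVM MII (edgeR adjusted p = 0.00278). IREB2, CCP110, REST and FOXO3 were each called up in both comparisons with GV. TOP2A, a topoisomerase, rose from 46.7 ± 1.48 CPM in GV to 149 ± 4.75 in IVO MII and 144 ± 14 in IVM MII. Its calls were lost without either GV library (edgeR adjusted p 0.0616 to 0.0775), and that of REST without GV replicate 2 (edgeR adjusted p = 0.0502). Between IVM and IVO MII, 0 genes of these 6 lists were called by edgeR, where 1.47% of all 16374 tested genes were called. With 4 to 31 tested genes each, the lists are too short to be set against that share.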

How the data were processed

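The authors deposited 1 table of raw counts per gene, not normalized, with positions and feature lengths. The tools in the submitters' processing notes, in no given order, are featureCounts 2.0.1, SAMtools 1.15.1, Bowtie2 2.4.5, Trim Galore 0.6.7 and DESeq2. The genome build, strand setting and handling of multiply matching reads were not given in the sources used here. Per the labels' protocols, RNA was primed on its poly(A) tail and full-length cDNA was amplified by PCR, so counts are not independent molecules, and intervals and floors cover counting error only. Tail length was not measured. Bowtie2 does not split reads over introns, so SKP1, RBX1 and other genes with intronless or near-identical copies (BTRC and FBXW11) are uncertain, as are overlapping genes.

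Of the lines, 10 broken ones (3 genes, not members) were left out, and 26 names turned into dates had no symbol. The table had no blank or total rows. Symbols of 62 members matched a RefSeq gene table of the species, used for names only; positions are the deposited table's. FBXL19, FBXO39 and FBXO40 failed the filter. FBXO24's exons lie on more than 1 sequence.

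All 7 libraries entered 1 edgeR 4.0.16 fit (TMM, filterByExpr, glmQLFit with default settings, glmQLFTest, two-sided) in R 4.3.3. The groups were compared pairwise, with Benjamini-Hochberg adjustment over 16374 tested genes, which held 99.93% to 99.97% of each library's counts, and genes were called at an adjusted p under 0.05. The SE is the absolute log2 fold change over the square root of F. Tables and figures used Python 3.11.15, pandas 2.3.3, scipy 1.17.1 and matplotlib 3.10.9. The fit was also run on simulated counts in which a small set of genes was changed. Far more genes were called against GV in the real data, so that run does not test the scaling used here. Alternatives were RLE and upper quartile scaling, no filter, DESeq2 1.42.0, limma 3.58.1 voom, a newer edgeR fit, the compared groups alone, a replicate block and each library left out.

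Members, pathway lists and markers were chosen with earlier results of these data known. Named members were the core, SKP2, BTRC and receptors of known interest; the 8 highest and 8 lowest called changes per comparison with GV at 10 CPM or more in the higher group; for IVM against IVO MII, called members and the 8 smallest p; and the 5 highest levels per kilobase in each group. Of the named members, 1 is counted but not reported here. Lists name up to 4 called genes per comparison.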

Additional observations from a re-analysis of the deposited data

How the results depend on the processing

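The groups hold 2 or 3 libraries, and calls near the threshold moved with single libraries. Leaving out each library in turn gave 0 to 6 called members in IVM against IVO MII (2 with all), 10 to 24 in IVO MII against GV (21) and 9 to 28 in IVM MII against GV (25). Called in every fit with 1 library left out were 0, 8 and 9 members, and these were also called in every other alternative. In IVM against IVO MII the count was 6 without a filter, 10 with DESeq2, 7 with the newer edgeR fit and 1 with the groups alone. The shares of all genes were 3.36%, 9.4%, 4.73% and 0.368%, in that order. The other counts against GV stayed within 1.5 times. No member called both in the fit of all libraries and in an alternative changed sign. RLE scaling moved the median of all genes from -0.10 to -0.24 in IVM MII against GV.

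The labels do not say whether replicate numbers pair the samples. The numbers used here, also for the replicate block, are those of the sample titles. Deviations of same-numbered libraries from their group means correlated at -0.234 (GV and IVO MII), -0.171 and 0.11 (GV and IVM MII), and 0.353 and -0.177 (IVO and IVM MII). In the column labels, IVO MII replicate 2 carries the number of IVM MII replicate 3, and that pair correlated at 0.406. In a group of 2 libraries the deviations mirror each other, so these values cannot decide whether samples were paired. With the replicate block, 6, 20 and 24 members were called in IVM against IVO MII and in IVO and IVM MII against GV. The shares of all genes called were 7.56%, 30.1% and 35.5%, in that order. With the numbers of the IVO MII libraries crossed, chosen after seeing the data, 22 members were called in IVO MII against GV. There the share of all genes was 30.8%.

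Signs changed for members that were not called. In IVM against IVO MII, FBXL15 (-0.62) was 1.21 with voom and 0.35 with the block, FBXL4 (0.20) was -0.11, FBXL7 (0.30) -0.0638 and FBXO47 (-0.24) 0.0126 with the block, FBXO11 (0.09) was -0.0334 and FBXO30 (0.00) -0.12 with upper quartile scaling, FBXO30 was -0.0479 with RLE, -0.0488 with DESeq2 and -0.00227 with the groups alone, and FBXO6 (-0.07) was 0.038 with the newer edgeR fit. With 1 library left out the ranges were -0.15 to 0.61 for CUL1 (0.23), -1.61 to 7.23 for FBXL15, -0.31 to 0.79 for FBXL4, -0.0873 to 0.49 for FBXL7, -0.42 to 0.70 for FBXO11, -0.52 to 0.63 for FBXO30, -0.47 to 0.0299 for FBXO47, -1.998 to 0.59 for FBXO6 and -0.92 to 0.21 for FBXO7 (-0.44), and in IVO MII against GV -0.59 to 0.26 for FBXO34 (-0.09). The cause was not tested.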
